A study of Mus musculus with 12 samples.

Results

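Ier2, Ier3, Ier5, Ier5l and Phlda1 are immediate-early genes, which growth factors switch on within minutes and without the need for new protein synthesis. These 5 genes were chosen by name, with earlier results of these data known, among the 49671 genes in each count table. All 5 passed the filter on low counts (a count above 1 in 3 or more libraries), as did 18668 genes in all, and no member had a count of 0 in any library. RNA-seq was performed in NIH 3T3 cells, a mouse fibroblast line long used for serum induction. The cells carried either a negative control siRNA or an siRNA against total Lap2, the nuclear lamina-associated polypeptides encoded by Tmpo. They were kept in 0.3% FBS or given 15% FBS for 45 min, which gave 12 libraries in 4 groups of 3 (control 0.3%, Lap2 0.3%, control 15% and Lap2 15%). The control siRNA was transfected as well, so every group had passed through transfection, but knock-down rested on a single siRNA sequence in a single cell line. The paper names triplicates without saying whether these were separate cultures, and the labels do not say so either. The p-values thus measure the spread between these libraries, which may be technical.

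Serum acts on immediate-early promoters through ERK signalling, through SRF with its TCF and MRTF cofactors, and through factors such as CREB and NF-κB. IER2, IER5 and IER5L are related proteins with a conserved amino-terminal IER domain, and IER2 and IER5 bind the phosphatase PP2A. IER5 brings PP2A to the heat-shock factor HSF1. IER3 (IEX-1) is unrelated in sequence, acts in ERK signalling and cell survival, and also binds PP2A subunits. PHLDA1 (TDAG51) is a pleckstrin homology-like protein linked to apoptosis and growth-factor signalling.

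The members are small genes on 5 chromosomes of mm10, with positions from GENCODE M21. Ier2 (ENSMUSG00000053560, chr8:84661331-84662852, minus strand), Ier5 (ENSMUSG00000056708, chr1:155096361-155099636, minus strand) and Ier5l (ENSMUSG00000089762, chr2:30471537-30474219, minus strand) have a single exon. Ier3 (ENSMUSG00000003541, chr17:35821684-35822923, plus strand) and Phlda1 (ENSMUSG00000020205, chr10:111506286-111508645, plus strand) have 2 exons. A single exon was found in 2.66% of the 13906 protein-coding genes tested and in 1 of 40 other immediate-early genes. The members span 1240 to 3276 bases, against a median of 23324.5 bases over the tested protein-coding genes and 6505.5 bases over the other immediate-early genes. Phlda1 shares 1088 bases with Gm28592, an antisense non-coding gene. The counts listed for Gm28592 were 0.52% to 2.88% of those listed for Phlda1 in the same library. The library kit keeps strand, but whether the counting used it is not given in the sources used here, so reads of the overlap cannot be assigned with certainty.

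Promoters were available for only 3 members in the RefSeq table (GRCm38.p6), and the 250 bases upstream of each start are shown. Ier3 rose with Lap2 siRNA in 0.3% FBS, and Ier5 and Ier5l were not called. Ier2 and Phlda1, which also rose, had no promoter there, so the windows cannot be compared by that response. The windows are chr17:35821463-35821712 on the plus strand for Ier3, chr1:155099637-155099886 on the minus strand for Ier5 and chr2:30474200-30474449 on the minus strand for Ier5l. Capitals mark matches on either strand to CCAAT, to the GC box GGGCGG, to TATAA and to the κB consensus. The Ier3 and Ier5l windows run past the GENCODE starts (chr17:35821684 and chr2:30474219), so their last bases lie within the GENCODE genes.
Ier3: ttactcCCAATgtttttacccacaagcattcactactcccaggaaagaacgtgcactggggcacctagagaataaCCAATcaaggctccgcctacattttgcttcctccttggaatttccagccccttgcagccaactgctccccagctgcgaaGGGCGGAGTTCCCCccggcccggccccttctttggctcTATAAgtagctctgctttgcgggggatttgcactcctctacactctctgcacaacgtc
Ier5: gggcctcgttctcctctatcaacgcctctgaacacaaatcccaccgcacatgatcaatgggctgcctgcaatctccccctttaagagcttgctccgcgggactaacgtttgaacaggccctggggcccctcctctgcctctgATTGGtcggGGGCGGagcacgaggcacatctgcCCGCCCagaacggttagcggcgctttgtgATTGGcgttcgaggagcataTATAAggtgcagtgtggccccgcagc
Ier5l: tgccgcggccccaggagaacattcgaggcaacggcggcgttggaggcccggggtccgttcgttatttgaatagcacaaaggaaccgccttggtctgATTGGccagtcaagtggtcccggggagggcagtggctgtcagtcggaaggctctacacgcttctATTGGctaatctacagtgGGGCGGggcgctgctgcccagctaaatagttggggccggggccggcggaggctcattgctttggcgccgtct

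All 3 windows held CCAAT and GGGCGG, which occurred in 33.8% and 32.7% of the 32851 promoters of the table (250 bases each, both strands). The κB consensus occurred in Ier3 alone of these 3, in bases 92 to 83 upstream of the start on the minus strand, overlapping a GC box, and in 3.9% of all promoters. TATAA lay 26 bases upstream of the start in Ier5 and 58 bases upstream in Ier3, and occurred in 22.8% of all promoters. Distances are from the RefSeq starts, and the GENCODE start of Ier3 lies closer to its TATAA. The words CCAAT and TATAA were picked after the sequences had been read. GGAA, the core of ETS sites, was present in Ier3 and Ier5l and in 93.4% of all promoters. None of the 3 windows held the CArG box bound by SRF (in 1.47% of all promoters), the CREB site TGACGTCA (1.55%) or its core TGACG (17.8%). The AP-1 site TGANTCA (6.75%) and the longer TATAAA (12.4%) were not among their letters either. A match or its absence describes only the letters of these windows. Among the 40 other immediate-early genes, 30 had a promoter in the table. The CArG box was present in 4 of these 30 genes, CCAAT in 11, TGACG in 24 and GGGCGG in 26. These 30 genes had 46 promoters, so some had more than 1 window to match.

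The 3′ untranslated regions differed between members in AUUUA, a pentamer common in short-lived mRNAs. Ier3 had 8.16 copies per kb of its 3′ untranslated region, a density above that of 98.9% of the tested protein-coding genes, and Phlda1 had 4.90 per kb, above 94.9%. Ier5l had 2.39 per kb, Ier5 had 0.93 per kb and Ier2 had 0. The median was 1.2 per kb over all tested protein-coding genes, of which 30.3% had none, and 2.51 per kb over the other immediate-early genes.

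In the count tables, the libraries held 18026298 to 26265253 counts, and members held 288 to 16262 raw counts per library. Counts were scaled to a common library size (normalized counts). Tmpo, the siRNA target, had 2822 ± 57.0 (SD, n = 3) normalized counts in control 0.3% and 1083 ± 97.3 in Lap2 0.3%, a log2 fold change (log2FC) of -1.38, and 3175 ± 136 in control 15% and 706 ± 87.0 in Lap2 15%, a log2FC of -2.17. Of 8 fibroblast markers, all were tested, and with Lap2 siRNA 6 were lower and 1 higher in 0.3% FBS, and 6 were lower in 15% FBS, where 18.6% and 12.1% of all tested genes were called lower. Their summed normalized counts were 688639 to 702147 in control 0.3%, 350935 to 402665 in Lap2 0.3%, 675061 to 748606 in control 15% and 441248 to 525173 in Lap2 15%. Of 12 markers of other cell types, 6 passed the filter, none was called in any contrast, their sums were 54.3 to 92.7 in the 12 libraries, and Krt18, Myod1 and Myog were listed at 0. The part of the fibroblast markers in the results below was not tested. These are bulk libraries, so a different number of responding cells and a different amount of RNA per cell cannot be told apart.

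**Figure D1:**
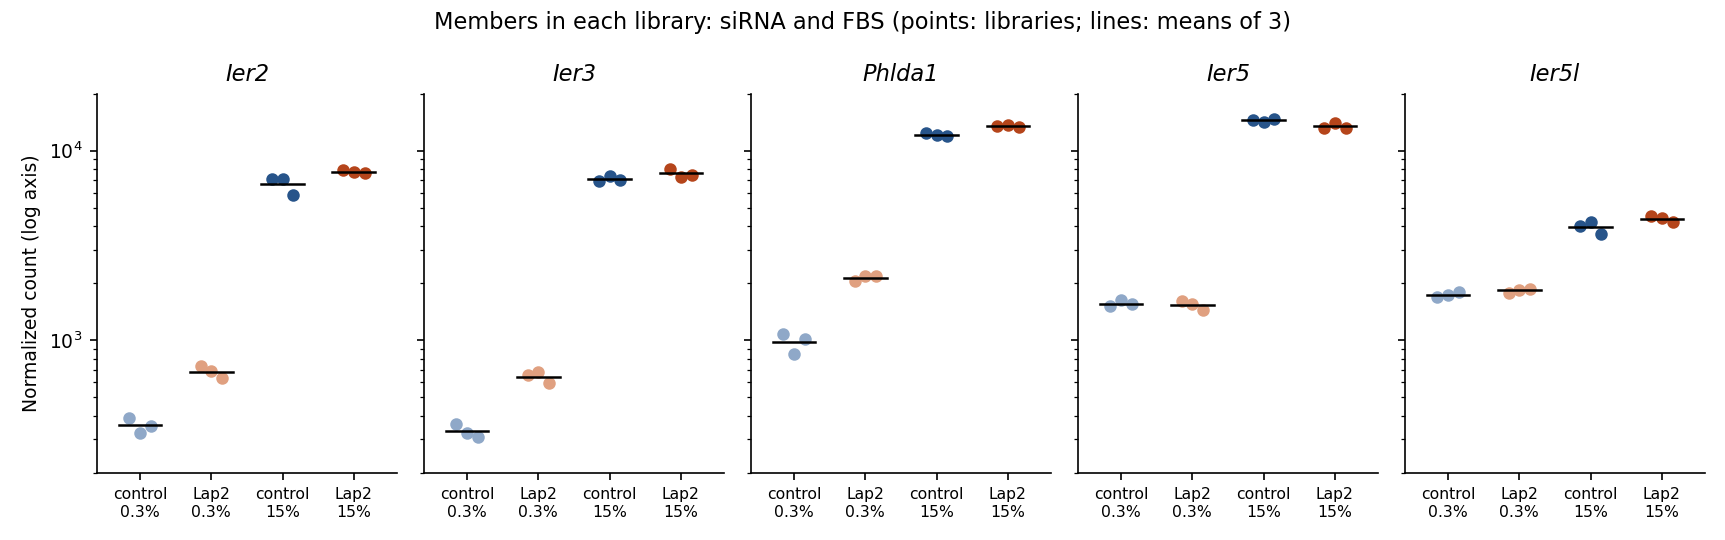
Normalized counts (log axis) of the 5 members in each of the 12 libraries, by siRNA and FBS; points are libraries and lines are means of 3. All 15% FBS libraries lie above all 0.3% FBS libraries in every panel, and Ier2, Ier3 and Phlda1 show separate Lap2 and control points in 0.3% FBS.

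To find how strongly the members respond to serum, the control siRNA groups were compared first. All 5 members rose in 15% FBS, where 15.6% of the tested genes were called higher. Ier3 rose most, 21.3-fold, and Ier5l least, 2.27-fold.

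Ier2 had 390, 324 and 352 normalized counts in the 3 libraries of control 0.3% and 7067, 7103 and 5825 in those of control 15%. Replicate 3 of control 15% was lower than the other two, and the groups were far apart. In edgeR's quasi-likelihood test over all tested genes, which gave every log2FC here, the log2FC of Ier2 was 4.23 (SE 0.09, Benjamini-Hochberg adjusted p = 1.6e-28), the 116th highest of the 18668 tested genes.

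Ier3 had 363, 325 and 311 normalized counts in control 0.3% and 6935, 7370 and 6973 in control 15%. The libraries of each group lay close together. Its log2FC of 4.41 (SE 0.08, adjusted p = 2.6e-30) ranked 96th from the highest.

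Phlda1 had 1073, 842 and 1017 normalized counts in control 0.3% and 12374, 12069 and 11968 in control 15%. Replicate 2 of control 0.3% was lowest, and all stimulated libraries were far above. Its log2FC was 3.64 (SE 0.08, adjusted p = 1.7e-28).

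Ier5 had 1513, 1620 and 1546 normalized counts in control 0.3% and 14429, 14197 and 14639 in control 15%. It varied least between stimulated control libraries, with a coefficient of variation of 1.53%. Its log2FC was 3.21 (SE 0.07, adjusted p = 1.2e-28).

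Ier5l, the relative of Ier5, had 1687, 1741 and 1791 normalized counts in control 0.3% and 4004, 4215 and 3629 in control 15%. The groups did not overlap, but the step was the smallest of the 5. Its log2FC was 1.18 (SE 0.07, adjusted p = 2.1e-16), and its rank was 1313th from the highest.

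Levels of different genes were compared per length of exon, as RPKM. In control 0.3% the order was Ier5l (30.7 ± 0.91 RPKM, SD, n = 3), Ier5 (22.6 ± 0.79), Phlda1 (21.0 ± 2.59), Ier3 (14.0 ± 1.14) and Ier2 (11.1 ± 1.03). Ier5 and Phlda1 were within their spread of each other. In control 15% the order was Ier3 (297 ± 10.1 RPKM), Phlda1 (261 ± 4.55), Ier5 (209 ± 3.20), Ier2 (208 ± 22.7) and Ier5l (69.8 ± 5.24). The most abundant starved member was thus the least abundant after serum, and Ier5 and Ier2 did not differ beyond their spread.

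With Lap2 siRNA the serum comparison used other libraries. All 5 members rose again, where 18.3% of the tested genes were called higher. Ier3 had 659, 678 and 592 normalized counts in Lap2 0.3% and 7966, 7290 and 7479 in Lap2 15%, a log2FC of 3.56 (SE 0.07, adjusted p = 2.9e-28). Ier2 had 735, 686 and 628 normalized counts and then 7899, 7705 and 7620, an 11.3-fold rise (SE of the log2FC 0.08, adjusted p = 9.2e-27). Both had started higher than with control siRNA.

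Phlda1 had 2059, 2177 and 2172 normalized counts in Lap2 0.3% and 13398, 13711 and 13356 in Lap2 15%, a log2FC of 2.66 (SE 0.07, adjusted p = 3.4e-25). For Ier5, the values were 1614, 1555 and 1451 and then 13202, 13896 and 13159, a log2FC of 3.12 (SE 0.07, adjusted p = 3.6e-28). The values of Ier5l were 1778, 1848 and 1874 and then 4515, 4398 and 4212, a log2FC of 1.26 (SE 0.07, adjusted p = 5.4e-17). Within each group the 3 libraries of these genes lay close together beside the step with serum.

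The effect of Lap2 knock-down on starved cells was then examined. Each comparison of siRNAs shares its libraries with the serum comparisons above, while those in 0.3% and 15% FBS share none with each other. Ier2, Ier3 and Phlda1 were higher in Lap2 0.3% than in control 0.3%, so 3 of 5 members rose and 0 fell, where 17.8% of the tested genes were called higher. Ier5 and Ier5l were not called.

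The Lap2 libraries of Ier2 (628 to 735 normalized counts) all lay above the control libraries (324 to 390). The difference was 1.93-fold (log2FC 0.95, SE 0.09, adjusted p = 1.5e-10). Ier3 was also 1.93-fold higher (log2FC 0.95, SE 0.08, adjusted p = 1.3e-11), with 592 to 678 against 311 to 363 normalized counts. The mRNAs of these unrelated proteins thus had nearly the same shift.

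For Phlda1, the values of 2059 to 2177 against 842 to 1073 normalized counts gave a 2.19-fold difference (log2FC 1.13, SE 0.07, adjusted p = 1.9e-14). Gm28592, antisense to Phlda1, had 17.7 to 24.3 normalized counts in control 0.3% and 11.3 to 35.4 in Lap2 0.3%, which overlap, and 81.4 to 264 in control 15% and 120 to 133 in Lap2 15%. All of its values were small beside those of Phlda1.

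Ier5 and Ier5l overlapped between the siRNAs in 0.3% FBS. The log2FC of Ier5 was -0.02 (95% interval -0.15 to 0.11, adjusted p = 0.86) and became 0.09 with scaling to total counts. With that scaling the median log2FC over all genes was 0.12 in this comparison, against 0.01 with TMM. The log2FC of Ier5l was 0.08 (95% interval -0.06 to 0.21, adjusted p = 0.41), and it was called with scaling to total counts (0.19). The upper bounds of both intervals were below the lower bounds for Ier2 (0.77), Ier3 (0.79) and Phlda1 (0.98).

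Members were also compared within libraries, since the ratio of 2 genes in a library needs no scaling between libraries. All 10 pairs were examined. The 6 pairs that set Ier2, Ier3 or Phlda1 against Ier5 or Ier5l shifted with Lap2 siRNA in 0.3% FBS by 0.87 to 1.15 on the log2 scale, without overlap. This split follows the calls in these same libraries and the pairs share genes, so the shifts are no separate support for it. No share over other gene pairs is given. The smallest exact permutation p that 3 against 3 libraries allow is 0.1, which all 6 pairs had (two-sided, adjusted p = 0.167 over the 10 pairs). The other 4 pairs moved by -0.19 to -0.01, and their groups overlapped. The mean log2 ratio of Ier2 to Ier3 was 0.09 in both groups.

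**Figure D2:**
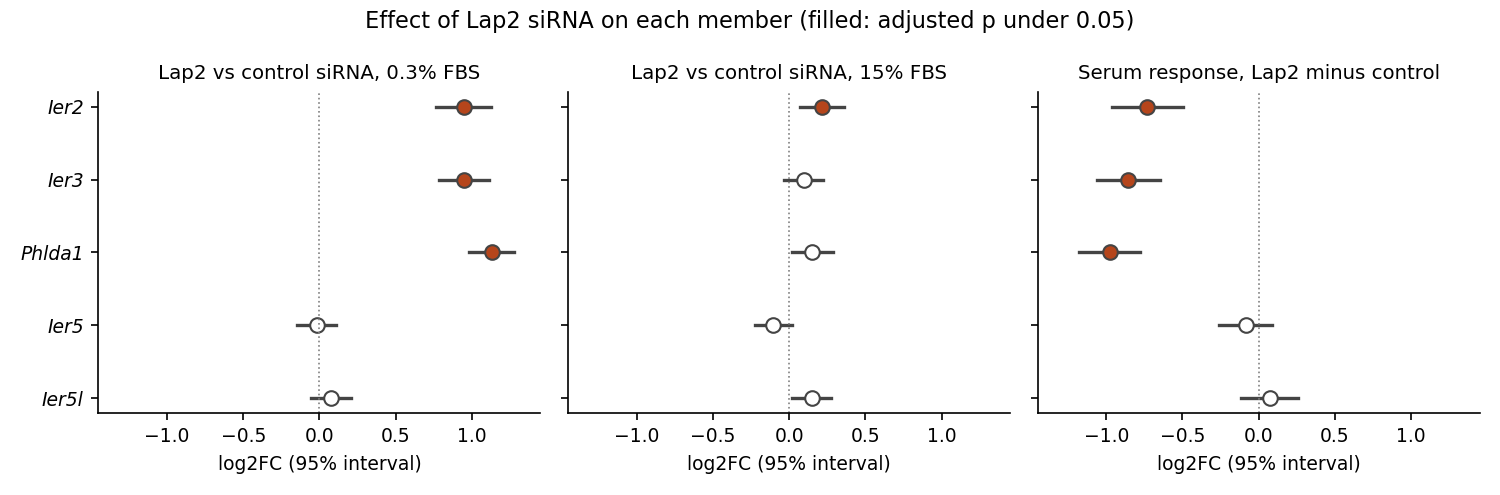
The log2FC of each member with its 95% interval for Lap2 against control siRNA in 0.3% FBS (left) and 15% FBS (middle), and for the difference between the serum responses (right); filled points have an adjusted p under 0.05. Ier2, Ier3 and Phlda1 sit near 1 on the left and near -1 on the right, and Ier5 and Ier5l sit near 0 in all 3 panels.

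In 15% FBS the siRNA groups lay much closer. Only Ier2 was called among the 5 members, where 11.4% of the tested genes were called higher. The Lap2 libraries of Ier2 (7620 to 7899 normalized counts) lay above the control libraries (5825 to 7103), with a log2FC of 0.22 (SE 0.07, adjusted p = 0.025). Without replicate 3 of control 15%, the low one, this log2FC was 0.12 (adjusted p = 0.3), and the call was also lost without replicate 1 (0.20, adjusted p = 0.087) or replicate 2 (0.22, adjusted p = 0.063) of Lap2 15%.

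Phlda1 did not overlap between siRNAs in 15% FBS, with 13356 to 13711 normalized counts against 11968 to 12374, yet its log2FC of 0.15 (95% interval 0.02 to 0.29, adjusted p = 0.097) was not called. Ier5 also did not overlap, in the other direction, with 13159 to 13896 against 14197 to 14639 normalized counts (log2FC -0.10, 95% interval -0.22 to 0.02, adjusted p = 0.23). The groups overlapped for Ier3 (log2FC 0.10, 95% interval -0.03 to 0.23, adjusted p = 0.33) and Ier5l (0.15, 95% interval 0.02 to 0.28, adjusted p = 0.096). No interval of these 4 genes reached 0.3 in either direction. The count of calls moved with the scaling: with total counts, which shift the median of all genes to 0.10 here, 4 members were called higher, and in a fit of the 15% FBS libraries alone Ier2 and Phlda1 were called higher and Ier5 lower.

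When only the 4 groups' order is considered, Ier2, Ier3 and Phlda1 ran from control 0.3% through Lap2 0.3% and control 15% to Lap2 15%. For Ier2 and Phlda1 no neighbours in that order overlapped, and for Ier3 only the 15% FBS groups did. The share of all tested genes without such overlap is not given here, so the order only describes these genes. The 0.3% FBS groups of Ier5 could not be ordered beyond their spread, and Lap2 15% was below control 15%. The groups of Ier5l overlapped between siRNAs at both serum levels.

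The difference between the serum responses was taken in 1 fit over all 12 libraries. It was called below 0 for 3 of 5 members and above 0 for 0, where 6.51% of the tested genes were called below 0 and 7.09% above 0. A value below 0 means a smaller rise only for genes that rose with both siRNAs, as all 5 members did. The difference was -0.73 for Ier2 (SE 0.11, adjusted p = 1.7e-05), -0.85 for Ier3 (SE 0.10, adjusted p = 2.2e-07) and -0.98 for Phlda1 (SE 0.10, adjusted p = 6.1e-09). The fold response was thus 1.66, 1.81 and 1.97 times smaller with Lap2 siRNA. For Ier5 the difference was -0.09 (95% interval -0.26 to 0.09, adjusted p = 0.60) and for Ier5l 0.07 (95% interval -0.11 to 0.26, adjusted p = 0.70). The ratio of 2 members within a library gave response differences of -0.64 to -1.06 for the 6 pairs across the groups named above (two-sided exact permutation p = 0.03 to 0.155, adjusted p = 0.167 to 0.221 over 10 pairs). The permutation swapped siRNA labels within each serum level. Its p is exact only for no siRNA effect at either level, not for equal responses. These pairs already differed between siRNAs in 0.3% FBS.

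A fold response divides by the starved level, so the gain in normalized counts was computed too, after the fold changes had been seen. Ier2 gained 6310 ± 421 (SE) normalized counts with control siRNA and 7058 ± 88.0 with Lap2 siRNA. Ier3 gained 6760 ± 140 and 6935 ± 203, and Phlda1 gained 11160 ± 140 and 11352 ± 118. These gains with Lap2 siRNA were 112%, 103% and 102% of those with control siRNA. For these 3 genes the fold response was smaller with Lap2 siRNA while the estimated gain was not.

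Ier5l gained 2210 ± 174 and 2542 ± 92.7 normalized counts, 115% of the gain with control siRNA. Ier5 gained 12862 ± 132 and 11879 ± 244, which was 92.4%. Ier5 was the only member whose estimated gain was lower, with a difference of -983 ± 277 (SE) normalized counts and a two-sided exact permutation p of 0.06 (0.3 adjusted over the 5 genes). The p-values of the other 4 differences were 0.245 to 0.74 (two-sided exact permutation over 400 arrangements). These arrangements also swapped siRNA labels within each serum level, so p refers to no siRNA effect at either level, not to equal gains. The signs of all 5 differences were the same with scaling to total counts and to the upper quartile, but their sizes were not. With total counts the difference was -262 ± 283 for Ier5 (exact permutation p = 0.345, a gain of 97.7%), 482 for Ier3 in place of 175 and 586 for Phlda1 in place of 192. With the upper quartile the difference for Phlda1 was 85.3.

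**Figure D3:**
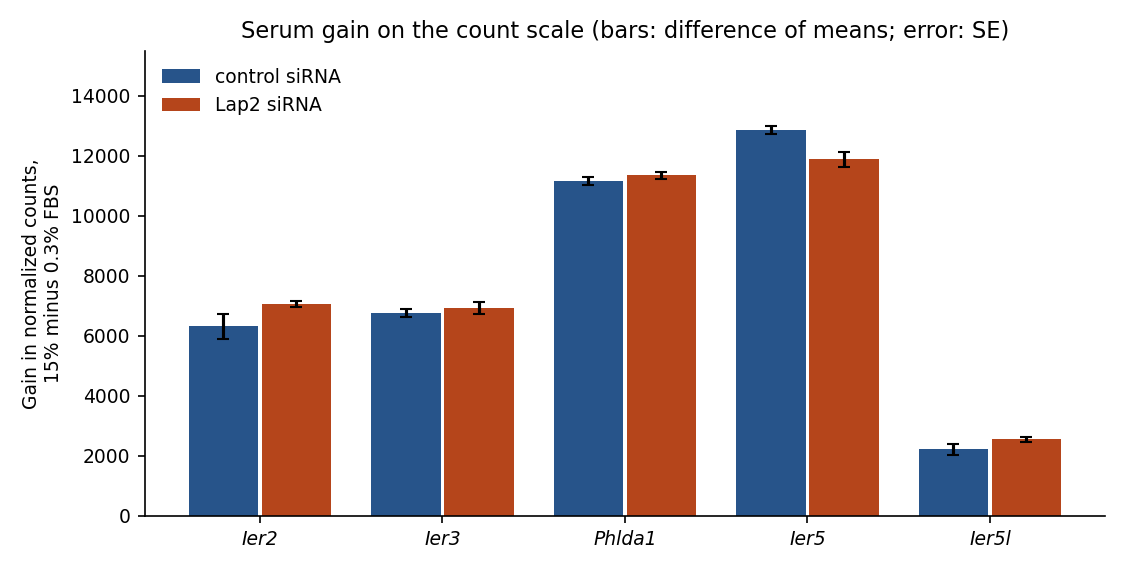
Gain of each member with serum, as the difference between the mean normalized counts in 15% and 0.3% FBS, for control and Lap2 siRNA; bars start at 0 and error bars are SE from 3 libraries per group. The Lap2 bar is the higher of the pair for Ier2, Ier3, Phlda1 and Ier5l and the lower for Ier5.

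The members were set beside 40 other immediate-early genes, a list that holds transcription factors such as Fos and Egr1, phosphatases and secreted proteins. All 40 rose with serum with control siRNA (median log2FC 4.90) and with Lap2 siRNA (median 4.12). Over all tested genes these medians were -0.01 and 0.00. Among those with at least 100 normalized counts on average, to which the rankings here are limited, Ptgs2 (cyclooxygenase 2), Egr4 and Nr4a1 had the highest values in control cells, with log2FC of 8.29, 8.23 and 8.16. Without replicate 2 of control 0.3% that of Egr4 was 9.23 and so the highest. In the same cells Klf2, Klf4 and Jun had the lowest values, with 1.17, 1.22 and 1.74. With Lap2 siRNA, Nr4a1, Fosb and Nr4a3 were highest (7.43, 7.23 and 7.06), and Klf2, Sgk1 and Jun were lowest (0.87, 1.27 and 1.66). Ier5l was thus at the low end beside Klf2 and Klf4, and the other 4 members were below the list's median with control siRNA.

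Of the 40 genes, 25 were higher and 8 lower with Lap2 siRNA in 0.3% FBS (median log2FC 0.58, against 0.01 over all tested genes, of which 17.8% were higher and 18.6% lower). With the same limit on counts, Ccn2, which encodes a matricellular growth factor, had the highest log2FC (2.33, adjusted p = 1.2e-18), followed by Ptgs2 (2.22, adjusted p = 3.1e-21) and Fosl1, an AP-1 subunit (1.62, adjusted p = 1.7e-13). The chemokine gene Cxcl1, the gene under the limit, had 2.05 (adjusted p = 8.3e-05). The lowest were Klf4 (-0.99), Klf2 (-0.67) and Junb (-0.57). Ier2, Ier3 and Phlda1 lay between these ends, above the list's median.

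In 15% FBS 5 of the 40 genes were higher and 17 lower with Lap2 siRNA, where 11.4% of all tested genes were higher and 12.1% lower. The part called higher was thus near that of all tested genes. With scaling to total counts 11 were higher and 16 lower. The median log2FC was -0.12, against 0.02 over all tested genes. Ccn2 was lowest (-1.86, adjusted p = 5.7e-17), then Klf2 (-0.98) and Plk2 (-0.78), and Nr4a2 (0.56), Mcl1 (0.55) and Spry4 (0.37) were highest. The difference between the serum responses was called below 0 for 25 of the 40 and above 0 for 4 (median -0.75, against 0.02). Over all tested genes 6.51% were called below 0 and 7.09% above 0. With the limit on counts, the 3 lowest were Ccn2 (-4.19), Ptgs2 (-2.12) and Ccn1 (-2.01), beside -2.18 for Cxcl1, and the 3 highest were Junb (0.86), Btg2 (0.58) and Klf4 (0.47). Ccn2 was higher in starved and lower in stimulated Lap2 cells, whereas no member was called lower in 15% FBS.

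**Figure D4:**
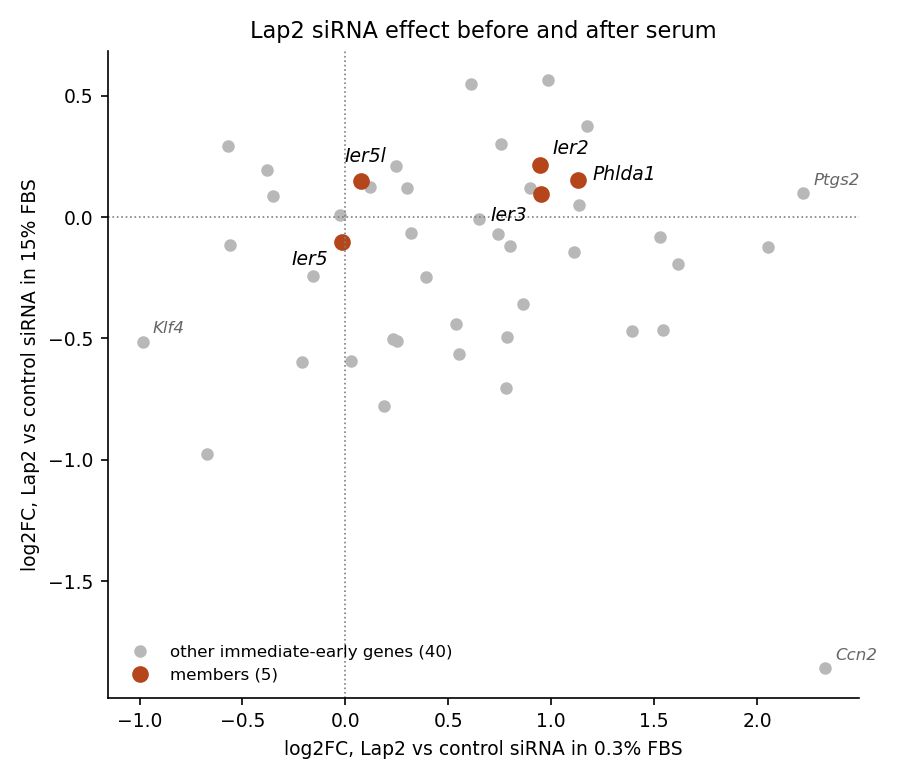
The log2FC for Lap2 against control siRNA in 0.3% FBS (horizontal axis) and in 15% FBS (vertical axis), which share no libraries, for the 5 members (red) and 40 other immediate-early genes (grey). Ier2, Ier3 and Phlda1 lie near 1 on the horizontal and between 0.10 and 0.22 on the vertical axis, Ier5 and Ier5l lie near the origin, and Ccn2 stands apart at 2.33 and -1.86.

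The genes of proteins that IER2, IER3 and IER5 are known to act with were examined from lists written with earlier results of these data known. Of 13 PP2A subunit genes, 11 were tested, and in 0.3% FBS 1 was higher and 6 were lower with Lap2 siRNA (median log2FC -0.23), against 17.8% higher, 18.6% lower and a median of 0.01 over all tested genes. The lower ones included both scaffold subunits, Ppp2r1a (-0.44) and Ppp2r1b (-0.71), and the regulatory subunit Ppp2r5c (-0.82), and Ppp2r2a (0.31) was higher. In 15% FBS 3 genes, Ppp2r1a (-0.30), Ppp2r1b (-0.46) and Ppp2r5c (-0.63), were called, all lower, as were 12.1% of all tested genes. The catalytic subunit Ppp2ca had log2FC of 0.12 and 0.11 (adjusted p = 0.11 and 0.19) and was not called.

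Of 10 heat-shock genes, 9 were tested, and 5 were higher and 0 lower with Lap2 siRNA in 0.3% FBS (median log2FC 0.33, against 0.01 and 17.8% called higher over all tested genes). Hsph1, a chaperone of the HSP110 family, had the highest value (1.40, adjusted p = 6.3e-15), and Hsp90aa1 (0.60), Bag3 (0.52), Dnajb1 (0.39) and Hsf1 itself (0.33) were also called. In 15% FBS Hsph1 (0.57), Bag3 (0.43) and Hsp90aa1 (0.28) were higher, and Hspa1a (-0.62) and Hspa1b (-0.44), near-identical copies whose reads the counting could split, were lower. The difference between the serum responses was called below 0 for 5 of the 9 genes, against 6.51% of all tested genes. For Hsph1, 1 of these 5, the log2FC with serum was 0.18 with control siRNA, which was not called. With Lap2 siRNA it was -0.65, which was called lower. Ier5 was not called in any of these 3 comparisons.

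Of 6 genes with names related to the members, 4 were tested. In 0.3% FBS 0 of them were higher and 3 lower with Lap2 siRNA, namely Phlda3 (-0.38), Phldb1 (-0.58) and Phldb2 (-0.70), where 18.6% of all tested genes were lower. Phlda3, whose product also has a pleckstrin homology-like domain, was thus lower in the libraries in which Phlda1 was higher. In 15% FBS Phldb1 (-0.49) and Phldb2 (-0.74) were lower, and Ier3ip1 (0.28, adjusted p = 0.047), whose product binds IER3, was higher. Phlda2 was listed at 0 in all libraries.

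The genes whose pattern was most like that of each member were taken by Pearson's r of log2 CPM over the 12 libraries, among 10449 genes with at least 100 normalized counts on average. The 12 libraries fall into a starved and a stimulated set, so r is high for any serum-induced gene and is given as a description. For Ier2 the nearest were Ier3 (0.9989), Taf5l (0.9982) and Dlx2 (0.9981), and for Ier3 they were Taf5l (0.9992), Dlx2 (0.9990) and Ier2. Ier2 and Ier3 were thus each among the 3 genes nearest to the other. For Phlda1 they were Ptgs2 (0.9982), Dusp5 (0.9977) and Smad7 (0.9977).

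For Ier5 the nearest genes were Nr4a1 (0.9991), Thbs1 (0.9989) and Errfi1 (0.9985), whose log2FC with Lap2 siRNA in 0.3% FBS were 0.23, 0.13 and 0.25. For Ier5l they were Snai1 (0.9953), Klf16 (0.9951) and Zfp36l2 (0.9951), with 0.28, 0.08 and 0.23. The genes nearest to Phlda1 had higher values in the same comparison, 2.22 for Ptgs2, 1.53 for Dusp5 and 1.28 for Smad7. Between members, r ran from 0.9643 for Phlda1 with Ier5 to 0.9989 for Ier2 with Ier3.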

How the data were processed

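RNA-seq libraries (rRNA removal, directional kit, NextSeq 500) of NIH 3T3 cells were compared. The deposited values are raw read counts. The authors had aligned the reads to mm10 with TopHat2 (Chipster, default settings) and counted them per gene with HTSeq. The paper names DESeq and a count cutoff above 1 for their comparison, and DESeq2 is listed in the submitters' processing notes. Versions, the annotation and the strand setting of counting are not given in the sources used here.

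Groups came from the siRNA and serum labels, and symbols were found for 99.3% of 49671 identifiers. Counts (18026298 to 26265253 per library) were analysed with edgeR 4.0.16 in R 4.3.3: TMM, 4 group means, glmQLFit and glmQLFTest. A Benjamini-Hochberg adjusted p under 0.05 was called. The 18668 genes tested had counts above 1 in 3 or more libraries. For normalized counts, each library was scaled to the mean effective (TMM) library size, and RPKM also takes exonic length (GENCODE M21). On simulated counts for Lap2 siRNA in 0.3% FBS, 200 of 18668 genes were changed by a log2FC of 1. They were drawn from genes with a mean normalized count of 100 or more, and 100% were recovered. Of the unchanged genes, 13 were called. The simulation changed far fewer genes than were called in the data (3330 higher and 3480 lower). Pandas 2.3.3, numpy 2.4.6 and matplotlib 3.10.9 (Python 3.11.15) made tables, permutation tests and figures.

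The members and gene lists were chosen with earlier results of these data known, so no list is independent support. Named were all members, Tmpo, the 3 highest and 3 lowest called immediate-early genes per contrast (mean normalized count 100 or more), heat-shock, PP2A and name-related genes called for Lap2 siRNA, and the 3 genes most correlated with each member. Other genes named were chosen after their values were seen. Alternatives were DESeq2 1.42.0, other scalings, filters and thresholds, a replicate block, fits of 2 groups and each library left out.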

Additional observations from a re-analysis of the deposited data

Results flagged for a closer look

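These results had a difference between the serum responses of Lap2 and control cells that passed the interaction test (edgeR quasi-likelihood, adjusted p under 0.05, 3 libraries per group, negative where the log2FC with serum was lower with Lap2 siRNA). Among the members they were Ier2 (-0.73), Ier3 (-0.85) and Phlda1 (-0.98). Of the 40 other immediate-early genes, 25 passed below 0 and 4 above 0. Among those with at least 100 normalized counts on average, the 3 lowest were Ccn2 (-4.19), Ptgs2 (-2.12) and Ccn1 (-2.01). The 3 highest were Junb (0.86), Btg2 (0.58) and Klf4 (0.47). Among the heat-shock genes they were Hspa1a (-0.75), Hspa1b (-0.64), Hsph1 (-0.83), Hsp90aa1 (-0.32) and Dnajb1 (-0.40), and among the PP2A subunits Ppp2r5a (0.36) and Ppp2r5d (0.32). Tmpo itself had -0.79, so the siRNA target was further below control in 15% FBS than in 0.3% FBS.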

How the results depend on the processing

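The calls in 15% FBS depended on the processing. There the count of members called with Lap2 siRNA, 1 by the reported test, was 4 with scaling to total counts, 3 (2 higher, 1 lower) in a fit of the 2 groups alone, and 0 with an adjusted p under 0.01. It ran from 0 (without control 15% replicate 3, or Lap2 15% replicate 1 or 2) to 2 (without Lap2 0.3% replicate 1) when single libraries were left out. With a log2FC beyond 1 also required, 1 member was called for Lap2 siRNA in 0.3% FBS, 0 in 15% FBS and 0 for the difference between responses, and 10, 1 and 12 of the other immediate-early genes were called. The log2FC of Ier5 in 0.3% FBS changed sign with scaling to total counts (0.092) and ran from -0.040 (without control 0.3% replicate 1) to 0.041 (without Lap2 0.3% replicate 3) with single libraries left out. Scaling to total counts moved the median log2FC of all genes by over 0.1, to -0.21 and -0.23 for serum with control and Lap2 siRNA, and turned the 3330 higher and 3480 lower calls for Lap2 siRNA in 0.3% FBS into 4692 and 2638. The serum response of Egr4 with control siRNA ran from 7.89 to 9.23 (log2FC) with single libraries left out. Of 520 values for members under the alternatives, 500 kept their direction and side of the threshold, as did 1290 of 1372 for other named genes.

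The sample titles number the 12 libraries in a single run, so the replicate numbers used here only follow the order within each group. Same-numbered libraries did not deviate together (correlations of -0.12 to 0.10 over 18 pairs), so no pairing by these numbers was seen. With 3 libraries per group, this check cannot show whether some were handled together. With the replicate block, 5, 5, 3, 1 and 3 members were called in the 5 comparisons, as without it. Members held 288 or more counts in every library, and a comparison of 3 against 3 libraries allows no exact permutation p below 0.1.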
